A study of Homo sapiens with 10 samples.

Results

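The genes described here act between the insulin and IGF1 receptors and the kinase AKT in U2OS, a human osteosarcoma cell line. They were measured in cells given PD0332991 (palbociclib), which blocks CDK4 and CDK6, the kinases that partner D-type cyclins, or the solvent DMSO. The named group has 10 genes: the phosphoinositide 3-kinase (PI3K) subunits PIK3R1, PIK3R2, PIK3R3 and PIK3CA, the PI3K inhibitor PIK3IP1, the receptors INSR and IGF1R, the adaptors IRS1 and IRS2, and the AKT phosphatase PHLPP1. A gene was measured where a probe set of the array was annotated to its symbol alone, and the probe set with the highest mean over all arrays stood for it. By this rule 8 of the 10 were measured, among 14232 genes in all, and PIK3R2 and PIK3CA were not analysed here. The genes were chosen with their difference between PD0332991 and DMSO already known, so that difference is given below as a description and supports no call of its own.

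All cells were plated at 25% density and kept for 30 h in McCoy medium with 10% serum before PD0332991 or DMSO was added for 4 h. Each treatment has 5 arrays, called biological replicates in the labels, and the array names form 2 sets: set 1 holds replicates 1 to 3 of both treatments and set 2 replicates 4 and 5 of both. The dose is printed as 1 mM in the labels; the arrays cannot test this unit, and it is doubtful, because culture doses of this compound are usually micromolar. U2OS is a single established line, so the replicates carry no spread between tumours; nothing says whether they came from separate cultures, and p-values measure the spread between these samples, which may be partly technical. Of the osteoblast and mesenchymal markers, 11 of 11 measured lay above the dimmest 33.3% of probe sets (a mean of 5.87 on the log2 scale), with COL1A1 at 12.04 and SPARC at 12.04. Among markers of other cell types, 4 of 9 epithelial, 3 of 8 blood cell and 1 of 6 endothelial genes did. EPCAM (5.78), CDH1 (5.55), PTPRC (3.90) and PECAM1 (4.71) did not. The marker lists did not separate cleanly. CD68 (8.56, blood cell), CLDN3 (7.65, epithelial) and CLDN5 (7.21, endothelial) stood above the osteoblast genes SP7 (6.06) and ALPL (6.24). DMSO replicate 1 stood apart from the other arrays: its median Pearson correlation with them over all probe sets was 0.964, against 0.982 to 0.987 for the other 9, and its interquartile range was the narrowest at 3.18.

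Insulin and the insulin-like growth factors bind INSR and IGF1R, receptor tyrosine kinases that phosphorylate the docking proteins IRS1 and IRS2. These recruit PI3K, a dimer of a regulatory subunit, such as the products of PIK3R1 and PIK3R3, with a catalytic p110 subunit. PI3K makes the membrane lipid PIP3, which brings AKT to the membrane for activation; PIK3IP1 is a transmembrane protein that restrains the catalytic subunit, and PHLPP1 removes an activating phosphate from AKT. In many cell types AKT in turn keeps forkhead factors of the FOXO family out of the nucleus, and FOXO factors can raise transcription of receptor and adaptor genes of the same pathway.

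For PIK3IP1, INSR and PHLPP1, the 3 genes whose treated and DMSO arrays did not overlap (values below), the sequence around an annotated start is shown here, from the RefSeq promoter table of build GRCh38.p14. Each runs 5′ to 3′ on the strand of the gene, from 250 bases before the start to 30 bases after it. Capitals mark matches, on either strand, to the forkhead core TGTTTAC or to the E2F-type motifs TTTGGCGC and TTTCCCGC, which share no overlapping match in these windows.
PIK3IP1 (chr22:31292459-31292738, minus strand): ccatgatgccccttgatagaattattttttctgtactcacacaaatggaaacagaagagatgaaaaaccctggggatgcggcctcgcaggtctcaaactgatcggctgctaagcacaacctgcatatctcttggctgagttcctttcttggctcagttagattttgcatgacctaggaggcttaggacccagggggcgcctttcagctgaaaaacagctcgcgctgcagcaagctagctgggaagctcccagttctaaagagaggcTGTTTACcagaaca
INSR (chr19:7294385-7294664, minus strand): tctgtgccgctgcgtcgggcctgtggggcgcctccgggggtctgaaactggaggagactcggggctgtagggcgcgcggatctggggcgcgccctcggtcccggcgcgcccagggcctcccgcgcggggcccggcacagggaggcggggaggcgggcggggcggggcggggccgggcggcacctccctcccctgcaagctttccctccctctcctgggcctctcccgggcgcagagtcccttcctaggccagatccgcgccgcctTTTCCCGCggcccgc
PHLPP1 (chr18:62715291-62715570, plus strand): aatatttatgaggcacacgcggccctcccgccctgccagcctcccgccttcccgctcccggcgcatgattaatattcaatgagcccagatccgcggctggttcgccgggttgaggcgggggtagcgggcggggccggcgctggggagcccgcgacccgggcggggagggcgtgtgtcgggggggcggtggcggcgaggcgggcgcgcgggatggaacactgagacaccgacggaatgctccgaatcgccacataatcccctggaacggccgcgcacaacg
The forkhead match of PIK3IP1 lies 17 to 23 bases after this start, and the table's other PIK3IP1 window, of 2, holds none. INSR carries TTTCCCGC at 16 to 23 bases after its start, and PHLPP1 carries none of the 3 motifs. In the full windows of 300 bases, PIK3R3 (6 windows), PIK3R1 (4), IGF1R and IRS1 held none of them, and IRS2 held TTTCCCGC on the opposite strand, 214 to 207 bases before its start. Over all 35116 windows of that length, 3.42% held the forkhead core, 0.652% TTTGGCGC and 1.63% TTTCCCGC. A match describes the letters of a window and shows no binding, and these arrays did not measure any.

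After 4 h of PD0332991, PIK3R3 and PIK3IP1 were higher than in DMSO, by 1.51-fold and 1.40-fold, and PHLPP1 and INSR were lower, by 1.44-fold and 1.20-fold. PIK3R1 was 1.16-fold higher, with overlapping arrays, while IGF1R, IRS1 and IRS2 differed by less than their standard errors. In limma, fitted over all 21980 probe sets with array set as a covariate, none of the 8 genes passed a Benjamini-Hochberg adjusted p of 0.05, a threshold that 0.00910% of probe sets passed as higher and 0.0409% as lower. At an unadjusted p under 0.05 limma gave 4 of the 8 (PIK3R3 and PIK3IP1 higher, PHLPP1 and INSR lower), where 4.17% of all probe sets had such a p; the genes were selected on this contrast, so nothing is read from that count. Of the 8, 5 were higher and 3 lower, with a median difference of 0.09 on the log2 scale, against a median of -0.02 and 44.7% higher over all genes. In these bulk samples a change in the share of cells that carry a transcript and a change in its amount per cell cannot be told apart.

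**Figure D1:**
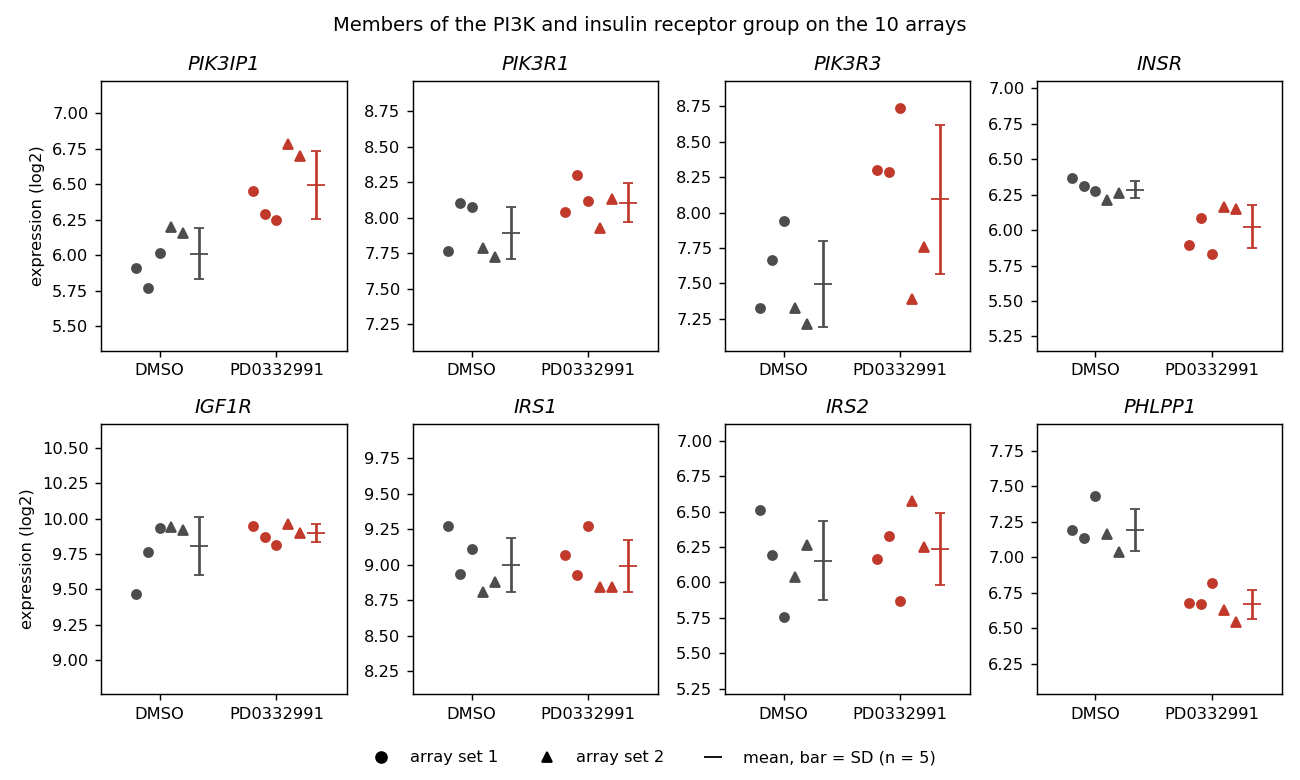
Log2 expression (vertical axis, the same span in every panel) of the 8 measured genes on the 5 DMSO and 5 PD0332991 arrays; circles are array set 1, triangles array set 2, and the bar beside each group is the mean with its SD. PIK3IP1, INSR and PHLPP1 show no overlap between treatments, PIK3R3 shows none within either array set, and the other 4 overlap.

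Among the receptors, INSR, which binds insulin, was the one with a treatment difference beyond its error. On DMSO it stood at 6.37, 6.31 and 6.27 in set 1 and at 6.21 and 6.26 in set 2, and on PD0332991 at 5.90, 6.08 and 5.83 in set 1 and at 6.16 and 6.15 in set 2 (log2 levels). Every treated array lay below every DMSO array, but in set 2 by a narrow margin. The difference was -0.26 ± 0.10 (log2, SE, n = 5 per treatment), with -0.38 in set 1 and -0.08 in set 2, and the interaction of treatment and array set did not pass (0.30 ± 0.19, limma adjusted p = 1.00). INSR was close to the dimmest 33.3% of probe sets, at a mean of 6.15 over the 10 arrays, where the array summary compresses differences.

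IGF1R, the receptor of IGF1 and IGF2, lay between 9.47 and 9.94 on DMSO and between 9.81 and 9.96 on PD0332991. The groups overlapped, and the difference was 0.09 ± 0.10 (log2, SE). DMSO replicate 1 was the lowest array of this gene, and without it the difference was 0.01. A second IGF1R probe set gave the opposite sign, -0.08 ± 0.18, so no direction is given for this gene.

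The adaptors showed no treatment difference beyond their error. IRS1, a docking protein that both receptors phosphorylate, ranged from 8.81 to 9.28 on DMSO and from 8.84 to 9.28 on PD0332991, with a difference of -0.01 ± 0.10. IRS2, its relative, ranged from 5.76 to 6.51 and from 5.87 to 6.57, with a difference of 0.08 ± 0.16. Neither kept a sign over the settings tried: IRS1 ran from -0.06 to 0.04 when 1 array was left out, and IRS2 from -0.01 to 0.20, its highest value being without DMSO replicate 1.

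Of the regulatory subunits in the group, PIK3R3 had the larger difference, and PIK3R1 overlapped between treatments. PIK3R3, which encodes the p55-gamma subunit, stood on DMSO at 7.33, 7.67 and 7.94 in set 1 and at 7.33 and 7.21 in set 2. On PD0332991 it stood at 8.30, 8.28 and 8.74 in set 1 and at 7.39 and 7.75 in set 2. Within each set the treated arrays lay above the DMSO arrays, but across sets they overlapped, since PD0332991 replicate 4 was below DMSO replicates 2 and 3. The difference of 0.60 ± 0.16 (log2, SE, n = 5 per treatment) was the largest of the 8 genes in size, and 54 of the 14232 genes had a larger one in either direction. It was 0.79 in set 1 and 0.30 in set 2, without a detectable interaction (-0.49 ± 0.32, limma adjusted p = 1.00), and 0.48 without DMSO replicate 1. Replicate 3 was the highest array of this gene in both treatments. These were the arrays with the widest interquartile ranges, 3.61 for DMSO and 3.68 for PD0332991. Whether that width bears on their PIK3R3 level was not tested. After quantile normalization, which makes the distributions equal, the treatment difference was 0.61, a value that does not show why replicate 3 was highest.

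PIK3R1 encodes the p85-alpha subunit and its shorter forms, and the array value does not separate them. It stood at 7.76, 8.11 and 8.08 on the DMSO arrays of set 1 and at 7.79 and 7.72 on those of set 2. The treated arrays stood at 8.04, 8.31 and 8.12 in set 1 and at 7.93 and 8.13 in set 2. They overlapped with DMSO in set 1 and lay above it in set 2. The difference was 0.21 ± 0.11 (log2, SE), 0.17 in set 1 and 0.28 in set 2.

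PIK3IP1, the inhibitor of the catalytic subunit, was higher on every treated array than on any DMSO array. It stood at 5.91, 5.77 and 6.02 on the DMSO arrays of set 1 and at 6.20 and 6.16 on those of set 2. After PD0332991 it stood at 6.45, 6.29 and 6.25 in set 1 and at 6.78 and 6.70 in set 2. The highest DMSO array (6.20) and the lowest treated array (6.25) came from different sets and were close, while within each set the gap was wider. The difference was 0.48 ± 0.09 (log2, SE, n = 5 per treatment), with 0.43 in set 1, 0.56 in set 2 and 0.49 without DMSO replicate 1. In all, 32 genes had a larger difference in this direction. Like INSR and IRS2, PIK3IP1 was close to the dimmest 33.3%, at a mean of 6.25.

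PHLPP1, the AKT phosphatase, differed by nearly the same amount in both array sets. Its DMSO arrays stood at 7.19, 7.13 and 7.43 in set 1 and at 7.17 and 7.04 in set 2, and its treated arrays at 6.67, 6.67 and 6.82 in set 1 and at 6.63 and 6.54 in set 2. Every treated array lay below every DMSO array. The difference was -0.52 ± 0.09 (log2, SE, n = 5 per treatment), -0.53 in set 1 and -0.52 in set 2, and -0.54 without DMSO replicate 1. In all, 60 genes had a larger difference in this direction.

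Over the group, the 2 treatments did not overlap across all 10 arrays for 3 of 8 genes, an order that 0.913% of all genes had, and did not overlap within either array set for 4 of 8, an order that 2.60% of all genes had. Both orders come from the contrast the genes were chosen on. With arrays weighted by their estimated quality, PIK3IP1 passed in limma as higher (0.54, adjusted p = 0.0203). PHLPP1 passed as lower (-0.52, limma adjusted p = 0.0271). These p-values also come from the contrast the genes were chosen on and support no call. This setting passed 63 probe sets in place of 11, and PIK3IP1 and PHLPP1 passed in none of the other 16 settings tried, where limma adjusted p-values reached 0.999 for both genes.

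**Figure D2:**
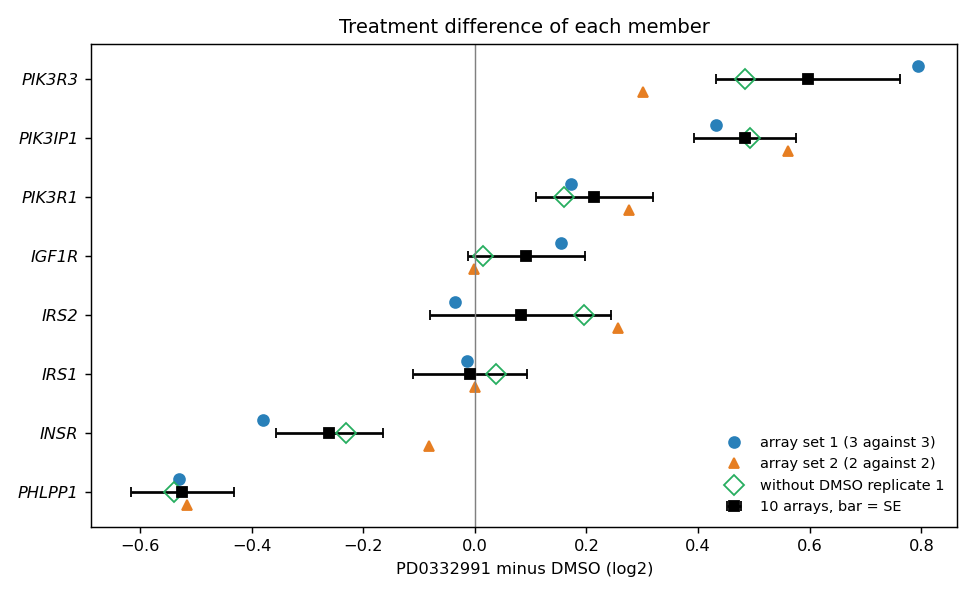
Difference between PD0332991 and DMSO (log2, horizontal axis) of each measured gene: black squares are the fit over 10 arrays with its SE, blue circles array set 1, orange triangles array set 2, and open green diamonds the fit without DMSO replicate 1. PHLPP1 lies at -0.53 and -0.52 in the array sets and PIK3IP1 at 0.43 and 0.56, while PIK3R3 (0.79 and 0.30) and INSR (-0.38 and -0.08) are farther from 0 in set 1.

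The level of the genes between the array sets is a contrast their choice did not use. None of the 8 passed (limma, adjusted p under 0.05, a threshold that 3.53% of all probe sets passed), and 3 had an unadjusted p under 0.05, as did 18.3% of all probe sets: PIK3R3, PIK3IP1 and IRS1. PIK3R3 was lower in set 2, with means of 8.04 and 7.42 (-0.62 ± 0.17, limma adjusted p = 0.0760), a shift as large as its treatment difference. PIK3IP1 was higher in set 2, with means of 6.12 and 6.46 (0.35 ± 0.09, limma adjusted p = 0.0761). Both passed with the dimmest 33.3% of probe sets left out (limma adjusted p = 0.0414 for PIK3R3 and 0.0380 for PIK3IP1), with array weights (0.00804 and 0.0167) and without DMSO replicate 1 (0.0211 and 0.0412); over the 13 alternatives the adjusted p reached 0.242 for PIK3R3 and 0.244 for PIK3IP1. IRS1 was lower in set 2 by 0.26 (-0.26 ± 0.10, limma adjusted p = 0.224). The treatment difference itself did not differ detectably between the sets for any of the 8: the interaction passed for 0.00% of probe sets. An unadjusted limma interaction p under 0.05 was found for 0 of the 8 genes. It was found for 177 of all 14232 genes and for 2.56% of all probe sets.

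The wider pathway gave no call. A list of 81 further genes of insulin, IGF and PI3K signalling held 67 measured ones, of which 33 were higher and 34 lower after PD0332991, with a median difference of 0.00 on the log2 scale. limma passed 0 of the 67 and gave 3 at an unadjusted p under 0.05, against 4.17% of all probe sets. The difference farthest from 0 was in EGFR, the epidermal growth factor receptor, which was lower within both array sets at 7.82 ± 0.24 on DMSO and 7.37 ± 0.12 on PD0332991 (log2, SD, n = 5; difference -0.45 ± 0.12, SE, limma adjusted p = 0.635). The other receptors lay between -0.13, for the growth factor receptor FGFR1, and 0.09.

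Ligands and IGF-binding proteins (6 measured) had a median of -0.01, and IGFBP5, which binds IGFs outside the cell, stood at 0.25 ± 0.09. Adaptors and receptor inhibitors (12 measured, 5 higher) lay between -0.21 and 0.09, among them the docking protein gene GAB1 at -0.20 and SH2B1, an adaptor of the insulin receptor, at -0.14. The PI3K subunits outside the group (9 measured, 5 higher) lay between -0.11 and 0.22, so none reached the size seen for PIK3R3. Of the catalytic subunits, PIK3CB was at 0.07 ± 0.15 and PIK3CD at 0.03 ± 0.09. Lipid and AKT phosphatases (6 measured, 2 higher) had a median of -0.01, with INPP4B, which removes a phosphate from a PI3K product, at 0.24 ± 0.14.

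A list of AKT, related and upstream kinase genes and genes for AKT-binding regulators (11 measured) included 8 higher genes, with a median of 0.08. Of these 8, 4 were the pseudokinase genes TRIB1, TRIB2 and TRIB3 and the regulator gene THEM4 (0.00), none of which encodes a kinase that activates AKT. AKT1 was at -0.02 ± 0.08 and AKT2 at -0.12 ± 0.10. TRIB1 and TRIB2 were at 0.21 ± 0.09 and 0.15 ± 0.08, and MAPKAP1, which encodes a subunit of the AKT kinase mTORC2, at 0.18 ± 0.11. AKT substrates and outputs (16 measured, 7 higher) lay between -0.28 and 0.36, with a median of -0.01. The upper end was RHEB at 0.36 ± 0.43, with opposite signs in the array sets (1.00 in set 1 and -0.59 in set 2). RHEB lay among the dimmest probe sets, at a mean of 4.61. CDKN1B, a CDK inhibitor gene that FOXO factors can induce, was at -0.28 ± 0.19 (-0.47 in set 1 and -0.01 in set 2). FOXO4 was at 0.04 (0.17 in set 1 and -0.14 in set 2). FOXO1 was at -0.02 ± 0.12, a mean of opposite signs, with -0.22 in set 1 and 0.27 in set 2 (limma interaction unadjusted p = 0.0478, adjusted p = 1.00). None of the differences in this list passed the adjusted threshold. Of the 67 pathway genes, FOXO1 was the 1 with an unadjusted limma interaction p under 0.05, against 177 of all 14232 genes.

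**Figure D3:**
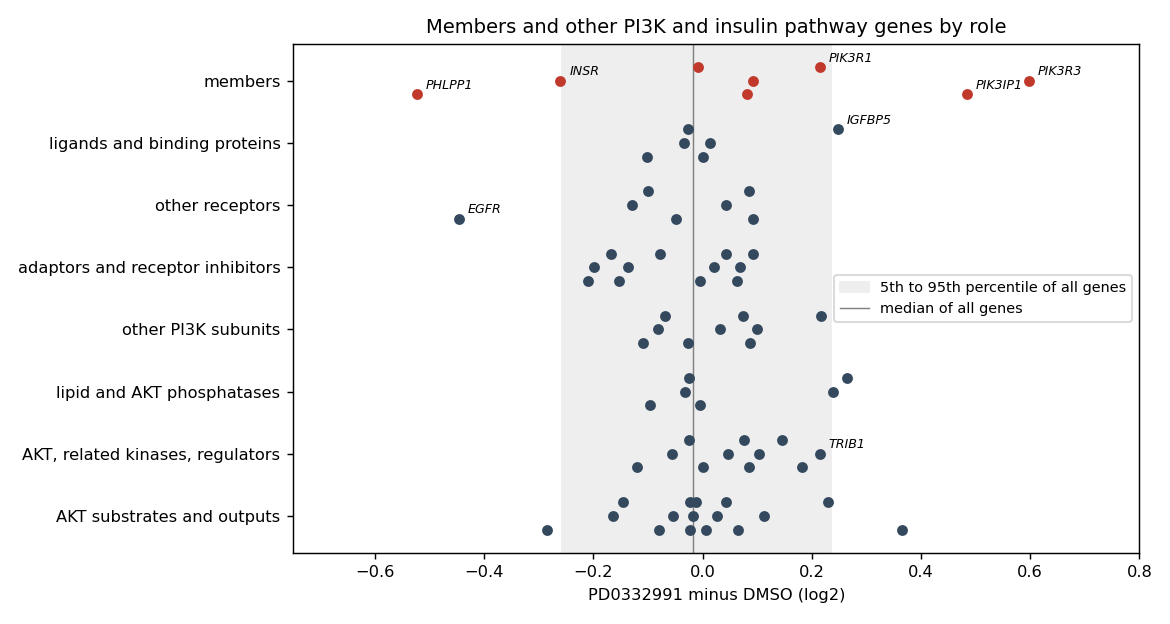
Difference between PD0332991 and DMSO (log2, horizontal axis) of the 8 genes of the group (red) and 67 other pathway genes (dark), 1 point per gene in rows by role; the grey band spans the 5th to 95th percentile of all genes, -0.26 to 0.24. PIK3R3, PIK3IP1 and PHLPP1 lie outside the band, INSR at its edge, and EGFR is the pathway gene farthest from 0.

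Between the array sets, 5 of the 67 pathway genes passed (limma, adjusted p under 0.05), against 3.53% of all probe sets. These 5, named after their values were seen, were SGK1, a kinase related to AKT (0.72 higher in set 2), TRIB1 (0.56), TRIB2 (0.44), PIK3CD (0.39) and GAB1 (-0.72).

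For the 2 genes with the largest differences, the genes with the most similar pattern over the 10 arrays were found by Pearson correlation after the mean of each array set was subtracted. These correlations were the 5 highest among all other genes, hold the treatment difference itself and are a description of 10 arrays. The genes most like PIK3R3 were CD55 (r = 0.994), which encodes a complement inhibitor, SLC38A2 (0.987), an amino acid transporter gene, CLK4 (0.976), a kinase gene of splicing control, ZSCAN31 (0.974) and GDAP1 (0.972). Their own differences ran from 0.21 for CD55 to 0.89 for CLK4, and none of the 5 passed in limma. The genes most like PHLPP1 were XRCC2 (r = 0.971), a recombination repair gene, JPH1 (0.968), PTPN3 (0.967), MCM10 (0.965), a replication initiation gene, and BTG3 (0.965). MCM10 was lower by 0.77 on the log2 scale (-0.77, limma adjusted p = 0.0499), and the other 4 ran from -0.61 to -0.25 and did not pass.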

How the data were processed

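Total RNA was measured on Affymetrix exon arrays. The authors deposited log2 expression values, 1 per array for each gene-level probe set. RMA, Partek and build hg18 are named, without versions, per the submitters' processing notes. RMA compresses differences of dim genes, and detection calls were not used here. Depth does not apply to arrays; their number limits precision. Probe sets were named through the platform annotation (14432 with 1 symbol, 2408 with several, 5140 unnamed), and symbols were checked against RefSeq of GRCh38.p14, with 28 unmatched and 0 altered. Treatment, array set and their interaction were tested, 2-sided, by lmFit and eBayes of limma 3.58.1 (R 4.3.3) and Benjamini-Hochberg adjustment over 21980 probe sets at 0.05; the procedure was tested on simulated data. The genes of the group and the lists were chosen with earlier results of these data known. The rule for named genes took the group, any pathway gene past the threshold, the 10 with the smallest p and the 5 most correlated genes of the 2 largest differences. AKT1, AKT2, FOXO1, FOXO4, RHEB, TRIB3, THEM4, PIK3CB and PIK3CD were named after their values were seen. Alternatives covered the model, normalization, dim probe sets, array weights, array sets, the IGF1R probe set and leaving out each array. Figures used Matplotlib 3.10.9 under Python 3.11.15.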

Additional observations from a re-analysis of the deposited data

How the results depend on the processing

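The signs of PIK3R3, PIK3IP1, PIK3R1, INSR and PHLPP1 held in all 17 alternatives, and those of IGF1R, IRS1 and IRS2 did not. PHLPP1 ran from -0.56 to -0.47, PIK3IP1 from 0.43 to 0.56, PIK3R3 from 0.30 to 0.79 and INSR from -0.38 to -0.08. The extremes of PIK3IP1, PIK3R3 and INSR came from single array sets. The number of genes of the group called for treatment was 2 with array weights and 0 otherwise. The number at an unadjusted p under 0.05 was 2 in array set 2 alone. Both numbers come from the contrast the genes were chosen on. Without 1 array the median difference of the group ran from 0.0514 to 0.134. Over all probe sets, limma called 11 for treatment as reported, 63 with array weights, 2 with the replicate block, and 0 in array set 1 or array set 2 alone (626 and 1270 at an unadjusted p under 0.05). Without 1 array it called 2 (without DMSO replicate 4 or 5, or PD0332991 replicate 1, 4 or 5) to 23 (without DMSO replicate 1). For array set it called 776, then 1272 without the dimmest 33.3%, 2966 with array weights, and 88 (without DMSO replicate 5) to 1805 (without DMSO replicate 1) without 1 array. The number of genes of the group called between array sets was 2 without the dimmest 33.3% and with array weights, and 0 to 2 without 1 array. The interaction gave 0 calls in all 13 alternatives, and 0 pathway genes were called for treatment in all 17. Neither the labels nor the arrays show that the replicate numbers pair the samples. Deviations from the group means correlated at 0.04 and 0.07 for replicates 1 and 2, and at 0.54, 0.23 and 0.20 for replicates 3, 4 and 5. With array set means also removed, replicates 1, 2 and 3 gave 0.09, 0.02 and 0.40, and replicates 4 and 5 gave -0.05 each. Before that removal, DMSO replicates 3 and 4 correlated best with their own number, the other 3 with another. The block changed no call of a gene of the group. The cause of these shifts was not tested. Signal over background could not be set for dim genes.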
